A study of Mus musculus with 12 samples.

Results

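The genes described here are 10 immediate early transcription factor and related genes, *Fos*, *Fosb*, *Fosl1*, *Jun*, *Junb*, *Egr1*, *Egr2*, *Ier2*, *Ier3* and *Myc*, chosen by name from the 21834 genes of a count table of mouse BV2 microglial cells. All 10 were present in the table. The rule names genes and uses no threshold on their values, but it was written with earlier results of these data known. BV2 is an immortalized mouse microglial line. The cells carried an integrated lentiviral vector, selected with puromycin, for either a control shRNA (the shCtrl line) or 1 directed at *Anxa2* (the shAnxa2 line). Each line was sampled without treatment (CTRL) or after oxygen-glucose deprivation followed by reoxygenation (OGD/R), a culture model of ischemia and reperfusion. Each of the 4 groups, shCtrl-CTRL, shCtrl-OGDR, shAnxa2-CTRL and shAnxa2-OGDR, had 3 libraries. Deprivation lasted 4 h, and reoxygenation lasted 12 h by the sample labels and longer by the study's methods. By the study's methods each genotype was 1 stable line made with 1 shRNA, so an effect of the shRNA and a difference between the lines cannot be told apart. The column headers name the untreated control libraries shCTL and the treated ones shCTL1, while both knockdown groups are headed shANXA2. Whether shCTL and shCTL1 are the same cells was not tested, and a difference between them could not be told apart from OGD/R in shCtrl cells. Groups were taken from the sample titles, because the cell type and genotype fields of the labels follow the treatment rather than the shRNA named in those titles.

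Immediate early genes are transcribed within minutes of a stimulus without new protein synthesis, from promoters read by serum response factor with its ELK partners, by CREB and by NF-κB, and their mRNAs are short-lived. Products of the *Fos* and *Jun* genes pair into the AP-1 transcription factor, EGR proteins are zinc finger factors of the same wave, and MYC pairs with MAX to drive genes of ribosome production, nucleotide synthesis and growth. In microglia these genes answer growth factors, cytokines, danger signals and the stress of tissue dissociation. The libraries here were taken hours after the return of oxygen and glucose.

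Promoter stretches are shown for 5 of the genes to give the letters of the motifs that these pathways read. The bases are from RefSeq on GRCm38.p6, cover the 150 bases before the annotated start, and run 5′ to 3′ on the strand of the gene, with matched motifs in capitals. The motifs searched on both strands were the cAMP response element core TGACGT, the Jun-type AP-1 or ATF site TGACATCA, the AP-1 site TGACTCA, the E-box CACGTG, the TATA motif TATAAA, the CArG box and the κB consensus. The sequence table held an entry for 6 of the 10 genes (*Fos*, *Fosb*, *Jun*, *Junb*, *Egr2* and *Ier3*), and *Fosl1*, *Egr1*, *Ier2* and *Myc* were not matched. The stretches are chr12:85473740-85473889 on the plus strand for *Fos*, chr4:95052223-95052372 on the minus strand for *Jun*, chr8:84978749-84978898 on the minus strand for *Junb*, chr10:67537719-67537868 on the plus strand for *Egr2*, for which the start nearest to the others was used of 5 in the table, and chr17:35821563-35821712 on the plus strand for *Ier3*.
Fos: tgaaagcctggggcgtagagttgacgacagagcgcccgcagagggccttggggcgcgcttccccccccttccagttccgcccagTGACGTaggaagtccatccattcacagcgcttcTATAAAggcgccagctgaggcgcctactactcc
Jun: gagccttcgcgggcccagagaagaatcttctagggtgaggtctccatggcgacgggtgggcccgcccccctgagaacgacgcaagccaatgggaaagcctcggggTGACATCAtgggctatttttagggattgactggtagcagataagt
Junb: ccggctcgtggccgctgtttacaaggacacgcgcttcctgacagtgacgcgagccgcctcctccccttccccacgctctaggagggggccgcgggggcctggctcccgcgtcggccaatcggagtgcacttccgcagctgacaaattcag
Egr2: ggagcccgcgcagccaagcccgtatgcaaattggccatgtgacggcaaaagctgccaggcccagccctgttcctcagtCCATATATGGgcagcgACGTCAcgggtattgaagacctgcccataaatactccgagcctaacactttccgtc
Ier3: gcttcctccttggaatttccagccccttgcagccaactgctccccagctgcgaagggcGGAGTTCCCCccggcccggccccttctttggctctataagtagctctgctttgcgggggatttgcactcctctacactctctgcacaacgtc

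The cAMP response element core lay 66 to 61 bases before the start of *Fos* and 56 to 51 bases before that of *Egr2*, where it was read on the opposite strand. Among 32851 promoter stretches of this length, 5.15% held it. The CArG box, which serum response factor reads, lay 72 to 63 bases before the start of *Egr2* and was in 0.916% of all stretches. The Jun-type site lay 45 to 38 bases before the start of *Jun* (2.32% of all stretches), the κB consensus 92 to 83 bases before that of *Ier3* (4.6%), and the TATA motif 33 to 28 bases before that of *Fos* (7.57%). The stretch of *Junb* held none of the motifs. In the longer window of 250 bases before to 50 after the start, which holds the κB consensus in 8.46% of all promoters, *Fos* and *Fosb* had this consensus too, 214 to 205 and 188 to 179 bases before the start, so among these genes it was not particular to *Ier3*. The AP-1 site and the E-box, found in 2.84% and 4.3% of all stretches, were in none of the 6. A match describes the letters of the stretch and is not evidence of binding, and the absence of a match speaks only of these letters in this window.

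The libraries held between 19521877 and 27288843 counts (median 24531756). *Anxa2*, the target of the shRNA, stood at a mean of 171.7 CPM (counts scaled to a common library size of 1e6) in shCtrl-CTRL, 278.9 in shCtrl-OGDR, 40.4 in shAnxa2-CTRL and 19.6 in shAnxa2-OGDR, so it was lower in every shAnxa2 library than in every shCtrl library. Of 17 microglia and macrophage markers, 15 passed the filter on low counts, *Sall1* was at 0 in all 12 libraries and *Siglech* had at most 4 counts in any. Their summed level was 2764 to 2824 CPM in shCtrl-CTRL, 2718 to 2868 in shCtrl-OGDR, 2419 to 2526 in shAnxa2-CTRL and 2510 to 2611 in shAnxa2-OGDR. Neuron markers summed to at most 1.33 CPM and astrocyte markers to at most 0.970 CPM, and *Snap25*, *Syt1*, *Nefl* and *Aqp4* were at 0 throughout. The 13 mitochondrially encoded genes took 0.402% to 0.472% of counts in shCtrl-CTRL, 0.251% to 0.272% in shCtrl-OGDR, 0.272% to 0.286% in shAnxa2-CTRL and 0.331% to 0.380% in shAnxa2-OGDR. Both *Anxa2* and the mitochondrial share moved in opposite directions upon OGD/R in the 2 lines, as did 98.6% of the genes called in both. The level of *Anxa2* checks which shRNA a library carries but not its treatment, and whether the CTRL and OGDR labels of the shAnxa2 libraries are the right way round was not tested. An exchange of them would reverse each OGD/R direction given below for shAnxa2 cells and change the comparisons between the lines and the differences of the OGD/R changes, whereas the values of shCtrl cells would stand. No batch is named in the labels, and one confounded with the groups cannot be told apart from their effects. In bulk RNA, fewer cells that express a gene and less RNA per cell cannot be told apart.

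Upon OGD/R, *Fos*, *Jun*, *Junb* and *Ier2* fell in shCtrl cells and rose in shAnxa2 cells, whereas *Ier3* and *Myc* rose in shCtrl cells and fell in shAnxa2 cells. Among the tested genes of the 10, the largest changes upon OGD/R were a 5.01-fold fall of *Fos* and a 3.98-fold rise of *Myc* in shCtrl cells. Of the 10 genes, 7 reached 0.5 CPM in at least 3 libraries and were tested, while *Fosb*, *Fosl1* and *Egr1* did not. Changes are log2 fold changes from edgeR's quasi-likelihood test over all 12 libraries, with Benjamini-Hochberg adjustment over 11626 genes and a threshold of 0.05 on the adjusted p. This test gives no standard error (SE). The SE was computed as the size of the log2 change over the square root of the F statistic. The 95% intervals were built from this SE and are approximate. The study's methods call the 3 libraries of a group biological replicates, each made of technical replicates, within 1 stable line per shRNA. The p-values measure the spread between these libraries and not that between independently made lines. An exact permutation test of 3 against 3 libraries cannot go below 0.1 and was not used for calls.

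**Figure D1:**
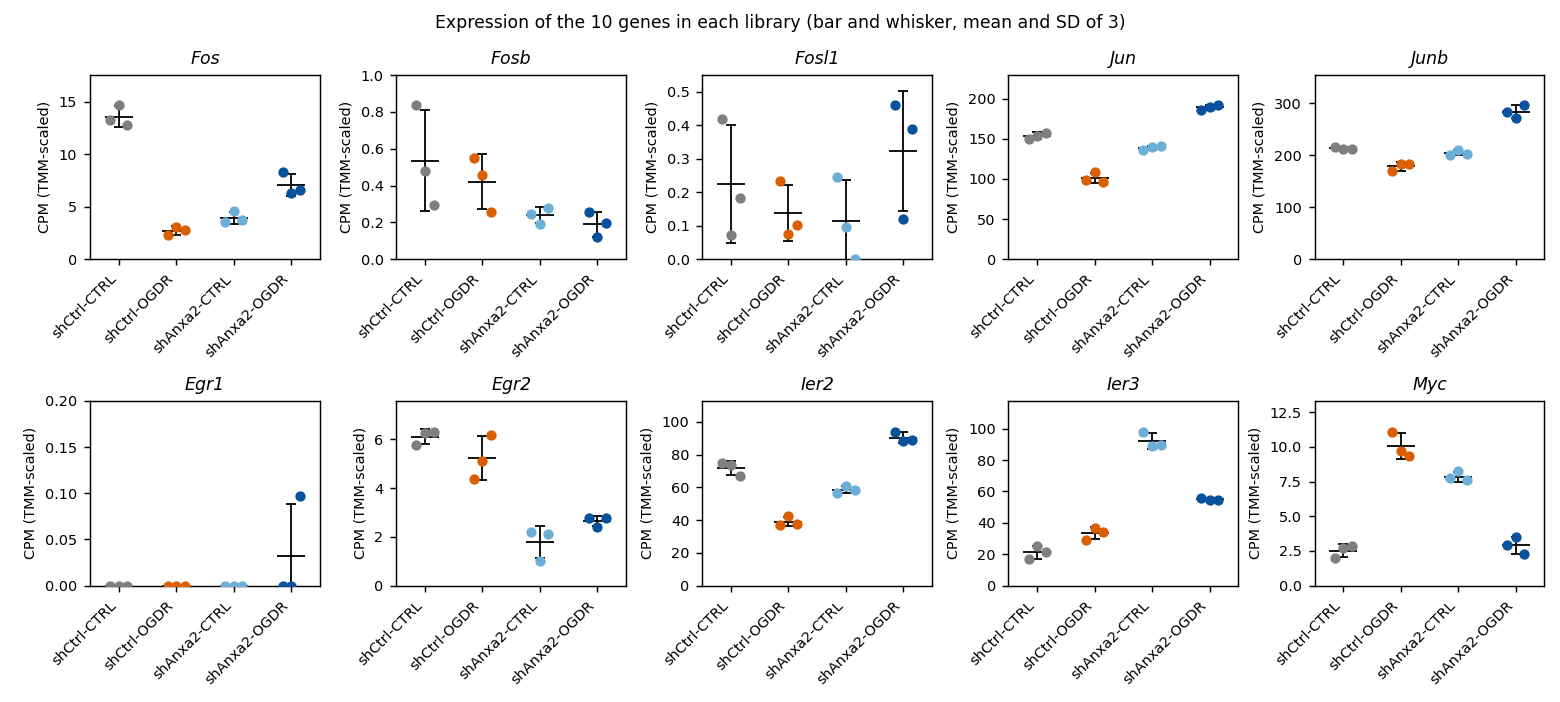
Expression of the 10 genes in each library in CPM with TMM scaling, on a linear axis per gene, for the 4 groups; each point is a library, and the bar and whiskers are the mean and SD of 3 libraries. *Fos* is highest in shCtrl-CTRL (12.8 to 14.7 CPM) and lowest in shCtrl-OGDR (2.27 to 3.09 CPM), while *Myc* is highest in shCtrl-OGDR (9.38 to 11.1 CPM).

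*Fos* encodes the AP-1 subunit whose promoter stretch holds the cAMP response element core and the TATA motif shown above. It stood at 13.3, 14.7 and 12.8 CPM in the 3 shCtrl-CTRL libraries, 2.27, 3.09 and 2.77 in shCtrl-OGDR, 3.57, 4.62 and 3.69 in shAnxa2-CTRL, and 8.32, 6.32 and 6.60 in shAnxa2-OGDR. No 2 neighbouring groups in the order shCtrl-CTRL, shAnxa2-OGDR, shAnxa2-CTRL, shCtrl-OGDR overlapped. In shCtrl cells *Fos* fell by 2.32 on the log2 scale upon OGD/R (SE 0.144, adjusted p = 1.15e-12, edgeR), a change exceeded in size by 0.533% of the genes tested. In shAnxa2 cells it rose by 0.83 (SE 0.149, adjusted p = 4.76e-05, edgeR), and the difference between both changes was 3.16 (SE 0.208, adjusted p = 1.8e-12, edgeR). The mitochondrial share of counts given above had the same order of the groups by its ranges, except that shCtrl-OGDR and shAnxa2-CTRL met at 0.272%, and its part in this result was not tested. The summed level of 6 endothelial and fibroblast markers also moved this way, at 1.84 to 2.02 CPM in shCtrl-CTRL, 0.649 to 1.10 in shCtrl-OGDR, 0.734 to 1.23 in shAnxa2-CTRL and 1.83 to 2.33 in shAnxa2-OGDR. Of these 6 markers, *Cdh5* and *Pecam1* passed the filter and no library had more than 39 counts of any of them, and their part in this result was not tested.

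*Jun* and *Junb* encode the basic leucine zipper partners of FOS proteins. *Jun* stood at 149.3, 153.9 and 157.8 CPM in shCtrl-CTRL, 99.2, 108.4 and 96.5 in shCtrl-OGDR, 136.4, 140.1 and 141.0 in shAnxa2-CTRL, and 185.8, 190.2 and 191.8 in shAnxa2-OGDR. *Junb* stood at 215.6, 211.1 and 212.5 CPM in shCtrl-CTRL, 169.1, 183.9 and 182.2 in shCtrl-OGDR, 201.1, 210.3 and 202.5 in shAnxa2-CTRL, and 283.6, 271.2 and 296.0 in shAnxa2-OGDR. The *Jun* and *Junb* levels had the same order of groups, highest in shAnxa2-OGDR, then shCtrl-CTRL, shAnxa2-CTRL and shCtrl-OGDR, with no overlap of neighbours. *Jun* fell by 0.60 (log2, SE 0.0481, adjusted p = 1.15e-10, edgeR) in shCtrl cells and rose by 0.44 (SE 0.0476, adjusted p = 3.61e-08) in shAnxa2 cells. *Junb* fell by 0.26 (log2, SE 0.0482, adjusted p = 6.14e-05, edgeR) in shCtrl cells, a change that 55.9% of the genes tested exceeded in size, and rose by 0.47 (SE 0.0482, adjusted p = 1.71e-08) in shAnxa2 cells. The 2 changes differed between the lines by 1.04 for *Jun* (SE 0.0677) and by 0.73 for *Junb* (SE 0.0682). On a scale per length of exons (FPKM, from CPM and GENCODE M21 exon lengths on GRCm38), *Junb* was the highest of the 10 genes in each group, at 77.5 to 123.3, and *Fos* stood at 1.15 to 5.77. *Atf3*, an AP-1 family gene outside the 10, stood at 48.5 to 97.7 FPKM and was above *Junb* in shCtrl-OGDR (97.7 against 77.5).

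*Fosb* and *Fosl1* encode the other FOS family subunits of the set and were barely detected. *Fosb* had 20, 13 and 8 counts in shCtrl-CTRL, 14, 12 and 5 in shCtrl-OGDR, 5, 4 and 7 in shAnxa2-CTRL, and 5, 3 and 4 in shAnxa2-OGDR. *Fosl1* had 10, 2 and 5 counts in shCtrl-CTRL, 6, 2 and 2 in shCtrl-OGDR, 5, 2 and 0 in shAnxa2-CTRL, and 9, 3 and 8 in shAnxa2-OGDR. For both genes each pair of neighbouring groups in the order of levels overlapped. Between the lines, however, the CPM of *Fosb* was lower in shAnxa2 cells without overlap, both in CTRL and after OGD/R. The ranges after OGD/R nearly met, at 0.256 CPM in shCtrl and 0.255 CPM in shAnxa2 cells, and neither difference was called. In a fit without the filter, the log2 change of *Fosl1* in shAnxa2 cells was 1.47, with a 95% interval of -0.16 to 3.10 (adjusted p = 0.163, edgeR). That of *Fosb* between the untreated lines was -1.11, with an interval of -2.29 to 0.07 (adjusted p = 0.130, edgeR). Neither change was resolved with these counts and libraries.

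The EGR genes encode zinc finger factors that bind GC-rich sites. *Egr1* was at 0 counts in 11 libraries and had 2 counts in the third shAnxa2-OGDR library. A count of 0 allows up to 3 counts, which is 0.110 to 0.154 CPM over the 12 libraries and covers counting error only. *Egr2*, with the CArG box in its promoter stretch, stood at 5.77, 6.27 and 6.32 CPM in shCtrl-CTRL, 4.38, 5.12 and 6.199 in shCtrl-OGDR, 2.20, 1.01 and 2.11 in shAnxa2-CTRL, and 2.76, 2.42 and 2.77 in shAnxa2-OGDR. The shCtrl groups overlapped, and every shAnxa2 library was below every shCtrl library. In shCtrl cells the change upon OGD/R was -0.24 on the log2 scale (95% interval -0.58 to 0.10, adjusted p = 0.212, edgeR). In shAnxa2 cells it was 0.56 (SE 0.228, adjusted p = 0.0408, edgeR), but 0.29 (adjusted p = 0.256) without the second shAnxa2-CTRL library, which had 21 counts against 45 and 53 in the others. The call in shAnxa2 cells was also lost without the first or the third shAnxa2-OGDR library, and in a fit of the shAnxa2 groups only. The difference between the changes was 0.80 (SE 0.282, adjusted p = 0.0146, edgeR), and 0.53 (adjusted p = 0.0654) without that library.

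*Ier2* encodes a nuclear immediate early protein, and *Ier3* encodes a stress response protein that acts on ERK signaling and cell survival. *Ier2* stood at 74.9, 73.7 and 66.9 CPM in shCtrl-CTRL, 37.1, 42.4 and 37.9 in shCtrl-OGDR, 56.3, 60.8 and 58.6 in shAnxa2-CTRL, and 94.1, 88.1 and 89.2 in shAnxa2-OGDR. Its order of groups was that of *Jun*, without overlap. *Ier2* fell by 0.88 (log2, SE 0.0612, adjusted p = 1e-11, edgeR) in shCtrl cells and rose by 0.63 (SE 0.0596, adjusted p = 5.25e-09) in shAnxa2 cells, a difference of 1.502 (SE 0.0854, adjusted p = 1.21e-13). *Ier3* stood at 16.8, 25.3 and 21.7 CPM in shCtrl-CTRL, 29.0, 36.9 and 34.4 in shCtrl-OGDR, 98.1, 89.2 and 89.4 in shAnxa2-CTRL, and 56.0, 54.5 and 54.4 in shAnxa2-OGDR. Every shAnxa2 library was above every shCtrl library, and no groups overlapped. *Ier3* rose by 0.65 (log2, SE 0.0998, adjusted p = 4.61e-06, edgeR) in shCtrl cells and fell by 0.75 (SE 0.0886, adjusted p = 1.73e-07) in shAnxa2 cells, and the changes differed by -1.39 (SE 0.133, adjusted p = 1.56e-09).

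*Myc* encodes the growth-promoting basic helix-loop-helix factor. It stood at 1.96, 2.71 and 2.87 CPM in shCtrl-CTRL, 11.1, 9.73 and 9.38 in shCtrl-OGDR, 7.73, 8.28 and 7.59 in shAnxa2-CTRL, and 2.91, 3.54 and 2.28 in shAnxa2-OGDR. Its levels ran downward in the order shCtrl-OGDR, shAnxa2-CTRL, shAnxa2-OGDR and shCtrl-CTRL, and the last pair overlapped. *Myc* rose by 1.99 (log2, SE 0.152, adjusted p = 4.58e-11, edgeR) in shCtrl cells, a change exceeded in size by 0.972% of the genes tested. It fell by 1.42 (SE 0.159, adjusted p = 6.98e-08, edgeR) in shAnxa2 cells, and the changes differed by -3.41 (SE 0.220, adjusted p = 1.2e-12). The summed level of 6 oligodendrocyte markers, mostly *Mbp*, moved in the same directions, at 4.67 to 5.75 CPM in shCtrl-CTRL, 5.87 to 6.81 in shCtrl-OGDR, 5.68 to 6.31 in shAnxa2-CTRL and 4.24 to 4.75 in shAnxa2-OGDR, with *Mog* at 0 in every library, and its part in this result was not tested. The raw counts of *Myc* behind these values were 47 to 78 in shCtrl-CTRL, 183 to 284 in shCtrl-OGDR, 158 to 191 in shAnxa2-CTRL and 47 to 89 in shAnxa2-OGDR.

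By count, 6 of the 7 tested genes were called upon OGD/R in shCtrl cells, where 63.4% of all genes tested were called. Of the 7, 2 were called higher and 4 lower, against 32.4% and 31% of all genes. In shAnxa2 cells all 7 were called, against 55% of all genes, with 5 higher and 2 lower against 28.2% and 26.8%. The call of *Egr2* there was lost in some alternatives, as given above. A change of at least 1 on the log2 scale was called for 2 of the 7 in shCtrl cells and for 1 in shAnxa2 cells, against 6.73% and 3.54% of all genes. The difference between the changes was called for all 7, against 70% of all genes (5 higher and 2 lower in shAnxa2 cells, against 34.9% and 35.1%), and was at least 1 in size for 5 of them, against 21.5%. Opposite directions of this kind were common in the table. Of 5239 genes called in both lines, 98.6% moved in opposite directions, which is 44.4% of all genes tested, and these OGD/R comparisons share no library. The 6 members called in both lines all moved in opposite directions, as did nearly all other genes called in both.

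**Figure D2:**
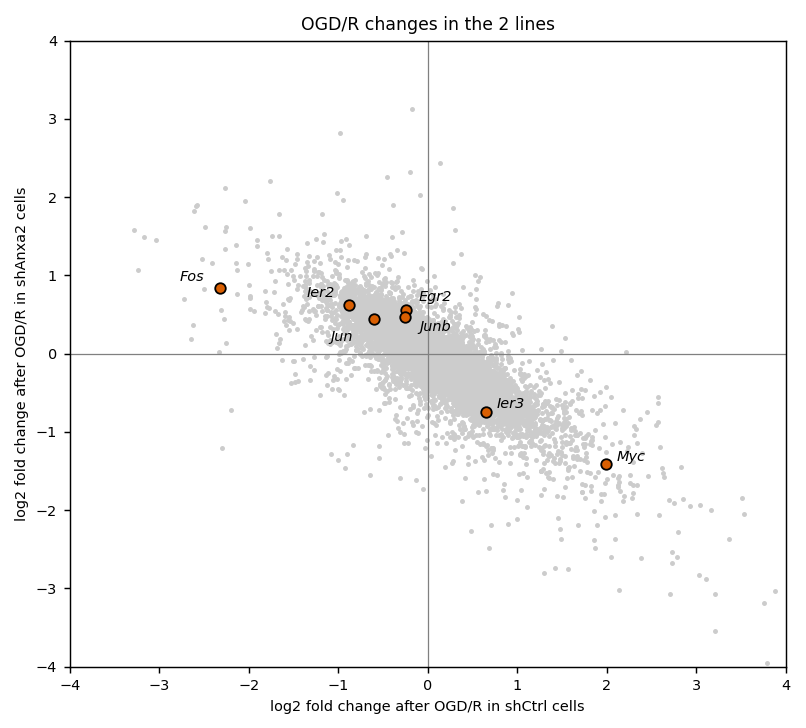
Log2 fold change upon OGD/R in shCtrl cells (horizontal axis) against that in shAnxa2 cells (vertical axis), both from edgeR, with 1 grey point per gene tested and the 7 tested genes in orange; 10 genes lie outside the axes, which end at 4 in each direction. *Fos* lies far to the left at -2.32 and 0.83 and *Myc* to the lower right at 1.99 and -1.42, within a cloud that runs from the upper left to the lower right.

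The lines already differed without OGD/R. In untreated shAnxa2 cells *Ier3* was 4.32-fold higher than in untreated shCtrl cells (log2 2.11, SE 0.0952, adjusted p = 5.64e-15, edgeR) and *Myc* 3.10-fold higher (log2 1.63, SE 0.157, adjusted p = 4.13e-09). *Fos* was 3.43-fold lower (log2 -1.78, SE 0.137, adjusted p = 8.75e-11, edgeR), and *Egr2* 3.42-fold lower (log2 -1.77, SE 0.197, adjusted p = 4.46e-08). *Ier2* was 1.23-fold lower (log2 -0.29, SE 0.0596, adjusted p = 0.00017, edgeR) and *Jun* 1.10-fold lower (log2 -0.14, SE 0.0476, adjusted p = 0.0124). The call for *Jun* was lost without the third shCtrl-CTRL library, at -0.12 (adjusted p = 0.0676). *Junb* differed by -0.06 (95% interval -0.16 to 0.04, adjusted p = 0.308, edgeR), although the 3 libraries of each line did not overlap. In all, 6 of the 7 were called, against 59.2% of all genes (2 higher and 4 lower, against 29.5% and 29.7%), and 4 of the 7 by at least 1 on the log2 scale, against 5.68%.

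After OGD/R, the comparison named in the series design, all 7 tested genes were called between shAnxa2 and shCtrl cells, against 67.9% of all genes, with 5 higher and 2 lower against 33.8% and 34.2%. *Fos* was 2.60-fold higher in shAnxa2 cells (log2 1.38, SE 0.157, adjusted p = 3.35e-08, edgeR), *Ier2* 2.31-fold higher (log2 1.21, SE 0.0612), *Jun* 1.87-fold higher (log2 0.90, SE 0.0482) and *Junb* 1.59-fold higher (log2 0.67, SE 0.0483). *Ier3* was 1.64-fold higher (log2 0.72, SE 0.0938, adjusted p = 3.22e-07, edgeR). *Myc* was 3.43-fold lower (log2 -1.78, SE 0.153, adjusted p = 2.88e-10, edgeR) and *Egr2* 1.97-fold lower (log2 -0.98, SE 0.191, adjusted p = 8.48e-05). Those of at least 1 in size were *Fos*, *Ier2* and *Myc*, 3 of 7, against 10.1% of all genes. The 4 pairwise comparisons share groups with each other, so their values are set side by side and not counted as separate support. *Ier3* and *Egr2* kept the side of the lines in both conditions, higher and lower in shAnxa2 cells respectively, while *Fos*, *Jun*, *Ier2* and *Myc* were called on opposite sides in CTRL and after OGD/R.

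**Figure D3:**
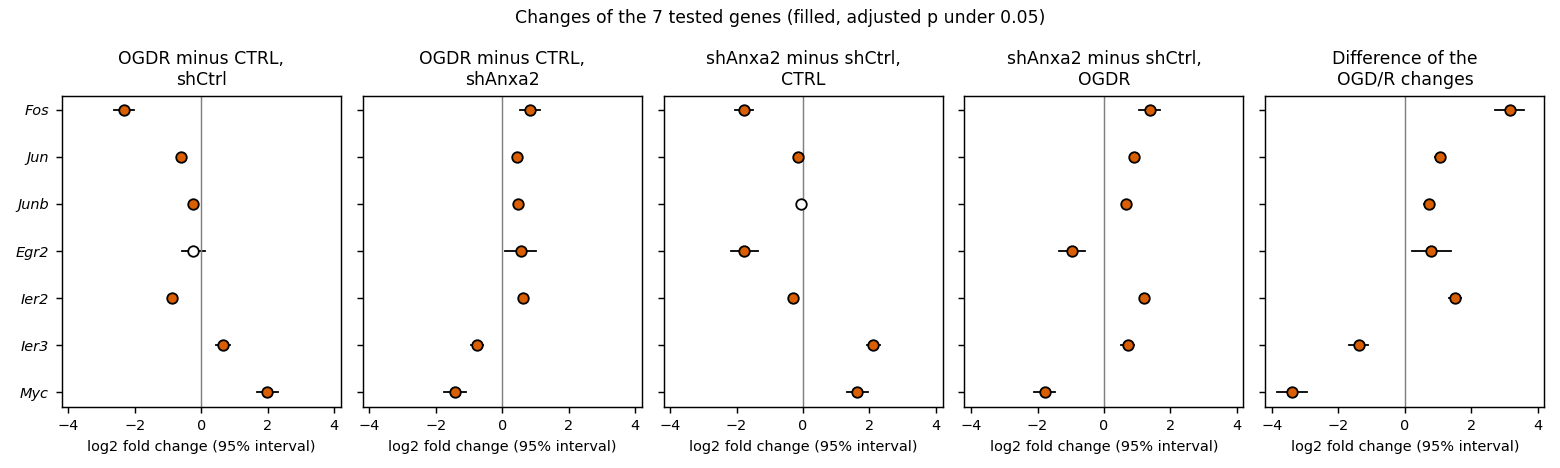
Log2 fold changes from edgeR of the 7 tested genes in the 4 pairwise comparisons and the difference of the OGD/R changes, with approximate 95% intervals. Filled points have an adjusted p under 0.05. The open points are *Egr2* upon OGD/R in shCtrl cells (-0.24) and *Junb* between the untreated lines (-0.06), and *Fos* (3.16) and *Myc* (-3.41) have the largest differences of the OGD/R changes.

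The 7 tested genes did not share 1 profile over the 12 libraries. As a description, the root mean square (RMS) difference of centred log2(CPM + 0.5) values was smallest for *Jun* and *Ier2* (0.136) and for *Jun* and *Junb* (0.137), and largest for *Fos* and *Myc* (1.60). *Fos* was 0.570 from *Ier2*, 0.645 from *Jun* and 0.732 from *Junb*. Its own values spread by an RMS of 0.822 about their mean, and those of *Junb* by 0.246. *Ier3* and *Myc*, which both rose in shCtrl cells, were 0.894 apart. The genes outside the set with the most alike profile by the same measure were *Nanos1* (0.223) and *Dmwd* (0.237) for *Fos*, *Ciapin1* (0.0570) and *Cdv3* (0.0583) for *Jun*, and *Dpm2* (0.0575) and *Nhp2* (0.0637) for *Junb*. For *Egr2*, *Fhad1* (0.234) is given. The most alike genes were, for *Ier2*, *Noc4l* (0.0768) and *Rrs1* (0.0774), for *Ier3* *Ptpn14* (0.254) and *Fxyd2* (0.279), and for *Myc* *Pim2* (0.191) and *Pdzk1ip1* (0.197).

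Other genes of the same pathways were read as lists, described by their calls and the median log2 change beside the median over all genes tested, which lay between -0.006 and 0.005 in the 5 comparisons. The lists share some genes (*Fosl2*, *Jund*, *Atf3*, *Maff* and *Mafk* are in 2 lists), and no test was run over any of them. In shCtrl cells the share called upon OGD/R was 78.1% of the other immediate early genes, 76.9% of the other AP-1 family genes, 50% of the upstream genes, 90% of the ERK feedback genes, 78.6% of the MYC network and 81.2% of the AP-1 and EGR targets, against 63.4% of all genes tested. In shAnxa2 cells the shares in the same order were 59.4%, 69.2%, 64.3%, 70%, 78.6% and 81.2%, against 55% of all genes, so several lay near that background. Of 37 other immediate early genes, 32 were tested. In shCtrl cells 10 rose and 15 fell upon OGD/R (median -0.23), and in shAnxa2 cells 11 rose and 8 fell (median 0.13). *Arc*, an activity-induced cytoskeletal gene, went from 9.36 to 2.46 CPM in shCtrl cells and from 2.78 to 7.63 CPM in shAnxa2 cells, a difference of the log2 changes of 3.36 (SE 0.197). *Trib1*, a pseudokinase, and *Ier5l*, an immediate early paralog, had differences of 2.02 (SE 0.163) and 1.97 (SE 0.267) in the same direction. *Btg1*, an antiproliferative gene, went the other way, from 27.7 to 59.1 CPM in shCtrl cells and from 49.4 to 26.5 CPM in shAnxa2 cells, with a difference of -1.99 (SE 0.108). The adjusted p of each of these 4 differences was at most 4.92e-07 (edgeR).

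The other AP-1 family genes did not follow *Fos*, *Jun* and *Junb*. Of 14 listed, 13 were tested, and in shCtrl cells 7 rose and 3 fell upon OGD/R (median 0.17), while in shAnxa2 cells 3 rose and 6 fell (median -0.08). *Atf3*, a stress-induced partner, rose from 104.5 to 210.4 CPM in shCtrl cells and fell from 161.2 to 106.5 CPM in shAnxa2 cells. *Batf*, which pairs with JUN proteins in immune cells, rose from 8.07 to 15.9 CPM and fell from 18.1 to 10.3 CPM in the same order. *Jund*, a JUN family gene outside the 10, rose from 41.2 to 56.8 CPM in shCtrl cells and fell from 67.8 to 46.5 CPM in shAnxa2 cells. *Maff*, a small MAF protein gene, rose from 19.1 to 30.3 CPM in shCtrl cells, and its fall from 32.8 to 28.9 CPM in shAnxa2 cells (adjusted p = 0.0218, edgeR) was lost without the third shAnxa2-CTRL library (adjusted p = 0.160) or the second shAnxa2-OGDR library (adjusted p = 0.0574). The differences of the log2 changes were -1.61 (SE 0.0741) for *Atf3*, -1.79 (SE 0.146) for *Batf*, -1.005 (SE 0.103) for *Jund* and -0.86 (SE 0.0966) for *Maff*.

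Kinases and factors upstream of immediate early transcription moved both ways. Of 29 listed genes, 28 were in the table and tested, with 8 higher and 6 lower upon OGD/R in shCtrl cells (median 0.02) and 8 higher and 10 lower in shAnxa2 cells (median -0.004). The 8 higher calls in shAnxa2 cells became 4 without the filter on low counts, 4 without the first shAnxa2-CTRL or the third shAnxa2-OGDR library and 5 without the second shAnxa2-CTRL library, which also took the 10 lower calls to 6. *Srf*, which encodes serum response factor, fell from 126.9 to 66.2 CPM in shCtrl cells and rose from 62.0 to 111.1 CPM in shAnxa2 cells. *Mapk3*, which encodes ERK1, rose from 26.2 to 57.2 CPM in shCtrl cells and fell from 39.9 to 23.6 CPM in shAnxa2 cells. *Map2k6* and *Mapkapk2*, kinases of the p38 branch, moved as *Mapk3* did, with differences of the log2 changes of -1.99 (SE 0.297) and -1.51 (SE 0.0642). Those of *Srf* and *Mapk3* were 1.78 (SE 0.0769, adjusted p = 8.24e-16, edgeR) and -1.89 (SE 0.127, adjusted p = 2.63e-12).

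Feedback genes of ERK signaling, which are transcribed when ERK is active, mostly moved with *Fos* in shCtrl cells. Of 13 listed, 10 were tested, with 2 higher and 7 lower upon OGD/R in shCtrl cells (median -0.58) and 4 higher and 3 lower in shAnxa2 cells (median 0.08). The 2 higher calls in shCtrl cells became 1 without the second shCtrl-OGDR library, and the 4 higher calls in shAnxa2 cells became 2 without the second shAnxa2-CTRL library. *Dusp6*, the ERK phosphatase, fell from 18.1 to 3.503 CPM in shCtrl cells and rose from 11.2 to 25.2 CPM in shAnxa2 cells, a difference of 3.57 (SE 0.20, adjusted p = 9.22e-14, edgeR). *Etv5*, an ETS factor gene, and *Dusp5*, a nuclear ERK phosphatase gene, differed by 1.77 (SE 0.115) and 1.54 (SE 0.166) in the same direction, and the rise of *Dusp5* in shAnxa2 cells (log2 0.34, adjusted p = 0.0144, edgeR) was lost without the second shAnxa2-CTRL library (adjusted p = 0.0534). *Etv1* went the other way (-1.33, SE 0.0950). After OGD/R, 7 of the 10 were higher and 2 lower in shAnxa2 than in shCtrl cells (median 0.75). That is 90% called, against 67.9% of all genes tested (33.8% higher and 34.2% lower).

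**Figure D4:**
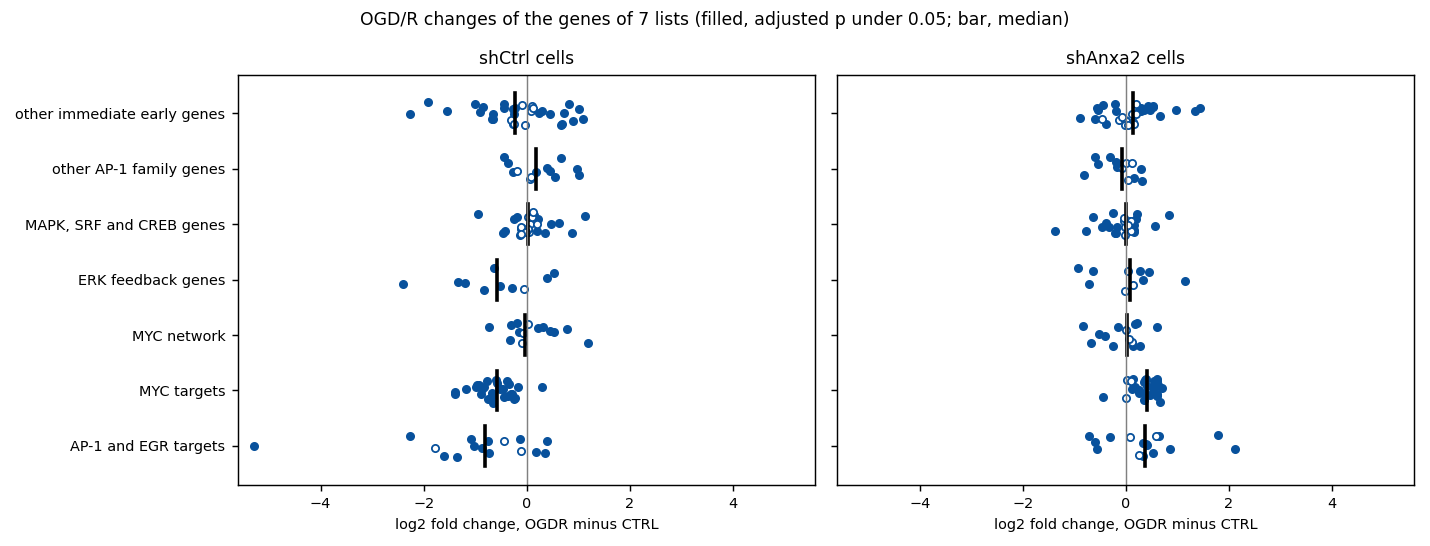
Log2 fold change upon OGD/R of each tested gene of 7 lists, in shCtrl cells (left) and shAnxa2 cells (right); filled points have an adjusted p under 0.05 and the bar is the median of the list. The MYC targets lie almost wholly below 0 in shCtrl cells (median -0.58) and above 0 in shAnxa2 cells (median 0.40).

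Genes of the MYC network, which encode the MAX partner proteins and regulators of MYC stability, had no common direction. Of 17 listed, 14 were tested, with 6 higher and 5 lower upon OGD/R in shCtrl cells (median -0.02) and 5 higher and 6 lower in shAnxa2 cells (median 0.03). The 5 higher calls in shAnxa2 cells became 2 or 3 in a fit without the filter, in a fit of only these 2 groups, or without any of 4 single libraries (shAnxa2-CTRL 2 or 3, shAnxa2-OGDR 1 or 2), and the 5 lower calls in shCtrl cells became 3 without the second shCtrl-OGDR library. *Mxd1*, which encodes a MAX partner that opposes MYC, rose from 27.7 to 63.2 CPM in shCtrl cells and fell from 40.6 to 22.9 CPM in shAnxa2 cells (difference -2.01, SE 0.0990). *Mxd4*, of the same family, rose from 14.2 to 24.3 CPM in shCtrl cells and fell from 7.09 to 4.44 CPM in shAnxa2 cells (difference -1.47, SE 0.176). *Mxd3* went the other way (difference 1.34, SE 0.282), and *Fbxw7*, which encodes a ubiquitin ligase subunit that targets MYC, had a difference of -0.97 (SE 0.112).

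The listed MYC targets moved against the *Myc* mRNA. Of the 30 genes, all tested, 29 fell and 1 rose upon OGD/R in shCtrl cells, with a median log2 change of -0.58, where *Myc* itself rose by 1.99. In shAnxa2 cells 25 rose, 1 fell and 4 were not called, with a median of 0.40, where *Myc* fell by 1.42. Between the untreated lines 5 were higher and 22 lower in shAnxa2 cells (median -0.23), and the 5 became 3 without the first shCtrl-CTRL library. After OGD/R 29 were higher and 1 lower in shAnxa2 cells (median 0.81), where *Myc* was lower. The share of these genes called was 100% in shCtrl cells, 86.7% in shAnxa2 cells, 90% between the untreated lines and 100% after OGD/R, against 63.4%, 55%, 59.2% and 67.9% of all genes tested.

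Examples spanned several MYC-linked functions. *Tfrc*, the transferrin receptor gene, fell from 715.9 to 271.7 CPM in shCtrl cells and rose from 488.5 to 744.5 CPM in shAnxa2 cells (difference 2.01, SE 0.0777). *Odc1*, the rate-limiting enzyme of polyamine synthesis, fell from 315.8 to 138.6 CPM and rose from 259.0 to 394.1 CPM in the same order (difference 1.79, SE 0.0743). *Polr1b*, a subunit gene of RNA polymerase I, fell from 75.9 to 39.8 CPM and rose from 48.8 to 79.3 CPM (difference 1.63, SE 0.0957). *Ccnd2*, a cyclin gene of the G1 phase, fell from 83.6 to 32.0 CPM in shCtrl cells and rose from 181.7 to 275.5 CPM in shAnxa2 cells (difference 1.99, SE 0.0772). The 1 gene of the list that moved as *Myc* did was *Ldha*, the lactate dehydrogenase gene that hypoxia also raises, named here after its values were seen. *Ldha* rose from 2056 to 2524 CPM in shCtrl cells (log2 0.30, SE 0.0460, adjusted p = 5.13e-06, edgeR) and fell from 2460 to 1811 CPM in shAnxa2 cells (log2 -0.44, SE 0.0461, adjusted p = 2.32e-08).

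**Figure D5:**
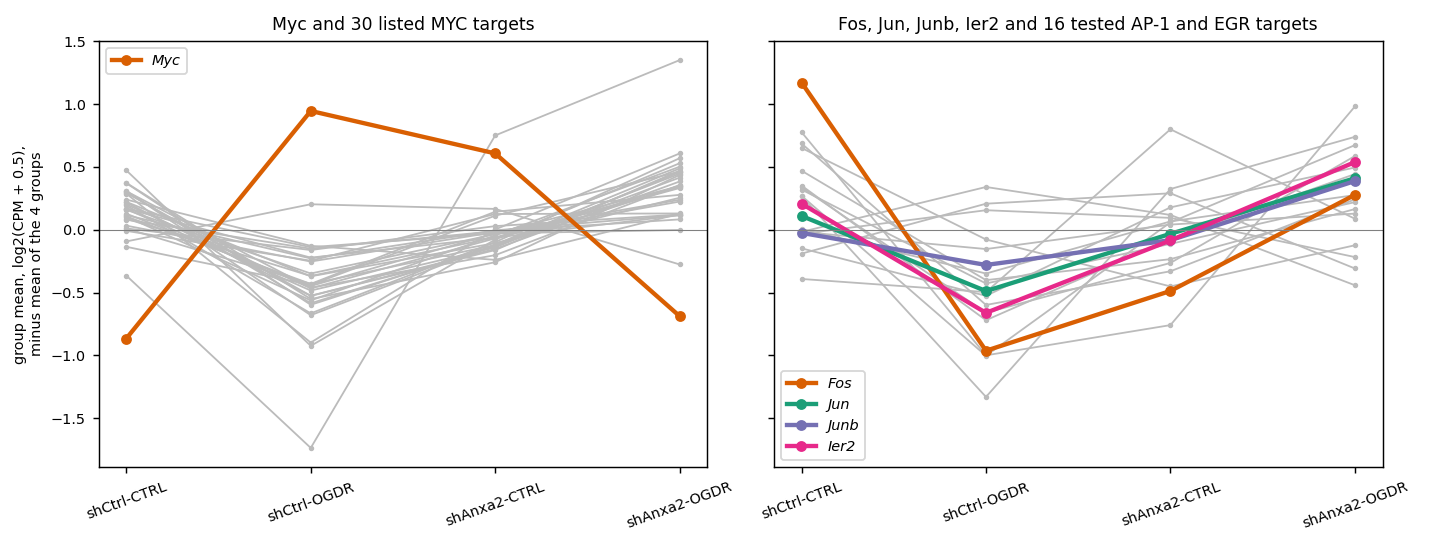
Group means of log2(CPM + 0.5), less the mean of the 4 groups, for *Myc* with the 30 listed MYC targets (left, grey) and for *Fos*, *Jun*, *Junb* and *Ier2* with the 16 tested AP-1 and EGR targets (right, grey). *Myc* peaks in shCtrl-OGDR (mean 10.1 CPM), where *Fos* has its lowest level (mean 2.71 CPM) and most grey lines have theirs.

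The listed AP-1 and EGR targets moved mostly with *Fos*, *Jun* and *Junb*. Of 19 listed, 16 were tested, with 3 higher and 10 lower upon OGD/R in shCtrl cells (median -0.81) and 9 higher and 4 lower in shAnxa2 cells (median 0.37). After OGD/R, 12 were higher and 3 lower in shAnxa2 than in shCtrl cells (median 0.72). That is 93.8% called, against 67.9% of all genes tested (33.8% higher and 34.2% lower). *Mmp12*, the macrophage elastase gene, fell from 4.22 to 0.880 CPM in shCtrl cells and rose from 1.13 to 4.94 CPM in shAnxa2 cells, and its difference of 4.38 (SE 0.307, adjusted p = 5.52e-12, edgeR) was the largest in these lists once genes averaging under 1 CPM were set aside. *Ccl2*, a monocyte chemoattractant gene, fell from 117.1 to 38.4 CPM in shCtrl cells and rose from 121.9 to 162.7 CPM in shAnxa2 cells (difference 2.03, SE 0.141). *Hbegf*, an EGF receptor ligand gene, and *Plaur*, the urokinase receptor gene, had differences of 1.98 (SE 0.142) and 1.88 (SE 0.109).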

How the data were processed

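RNA of 12 libraries of BV2 cells was sequenced. The authors deposited unnormalized counts of reads per gene, which were used here, beside 12 normalized per-sample columns that were not used. The submitters' processing notes name HISAT2 2.0.4 and mm39, the study's methods for hippocampi name Tophat 2 and HTSeq, and the counter and strand setting for these cells are not given in the sources used here. Reads from overlapping or antisense genes may therefore be counted together.

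The members and lists were chosen with earlier results of these data known. edgeR 4.0.16 in R 4.3.3 fitted 1 quasi-likelihood model with TMM scaling to the 11626 genes that reached 0.5 CPM in 3 or more libraries. The same steps were tested beforehand on simulated data, in which a small share of genes changed in 1 group and all genes had 1 dispersion. Most genes were called in each comparison here, and that simulation does not check this situation. Besides all members, text genes were the 4 per list with the largest called difference of the OGD/R changes and a mean of at least 1 CPM, and the 2 most alike genes per member, of which 1 is not reported here. Alternatives were median-of-ratios scaling, no filter or 1 CPM, the replicate number as a block, 2-group fits, DESeq2 1.42.0, limma 3.58.1 voom, and leaving out each library. FPKM values used GENCODE M21 lengths, and promoters came from RefSeq.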

Additional observations from a re-analysis of the deposited data

Results flagged for a closer look

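The OGD/R change differed between shAnxa2 and shCtrl cells for each of the 7 tested genes by the interaction term of edgeR's quasi-likelihood test, with the libraries grouped by their titles. The differences, as the log2 change in shAnxa2 cells minus that in shCtrl cells, were 3.16 for *Fos*, 1.04 for *Jun*, 0.73 for *Junb*, 0.80 for *Egr2*, 1.502 for *Ier2*, -1.39 for *Ier3* and -3.41 for *Myc*. The term was called for 70% of all genes tested.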

How the results depend on the processing

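No change of a member reversed direction under any alternative run. Leaving out a library of neither compared group alters a pairwise comparison only through the shared fit, so such recomputations could hardly change a call. Of 420 member log2 changes recomputed without 1 library, these included, 415 kept their call and 5 lost it. Of 238 under the other settings 1 lost its call. The lost calls were *Egr2* in shAnxa2 cells (log2 0.55, adjusted p = 0.0669 with 2 groups only; 0.29, 0.53 and 0.52 without shAnxa2-CTRL library 2 or shAnxa2-OGDR library 1 or 3), *Egr2* for the difference of the changes, and *Jun* between the untreated lines. Libraries with the same replicate number deviated together little, if at all (r -0.078 to 0.184 over 18 pairs, 1 of them over 0.1). For libraries of other numbers r was -0.147 to 0.11. The largest r was that of a same-number pair, and 15 of 36 matches were best with their own number. These values show no clear pairing, and whether the libraries were paired in the experiment was not tested. With the replicate number as a block, the members with a called change of at least 1 in size numbered 2 and 1 upon OGD/R in shCtrl and shAnxa2 cells, 4 and 3 between the lines in CTRL and after OGD/R, and 5 for the difference, as without it. Low counts limit what can be read from *Fosb*, *Fosl1* and *Egr1*, which had at most 20 counts in any library.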
